A study of Canis lupus familiaris with 14 samples.

Results

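Osteosarcoma, the common malignant bone tumor of large dogs, contains osteoclasts as well as tumor cells. Osteoclasts are the multinucleated cells that resorb bone. They form by fusion of macrophage-lineage precursors under the ligand RANKL, acidify the space beneath them with a proton pump, and dissolve the matrix with proteases such as cathepsin K and matrix metalloproteinase 9, the product of MMP9. MMP9 is also made by neutrophils and macrophages. Here 6 of the 7 tumors of the series were placed in 2 groups by their MMP9 level, the 3 highest against the 3 lowest, and the 14328 other genes with a mean of at least 1 CPM (the count of a gene scaled to a common library total) over the 7 tumors were compared between them.

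The series held 14 libraries, a primary tumor and a normal phalanx (P2) bone from each of 7 dogs, named A to G. All tumors were osteosarcomas of the limb, taken before chemotherapy and before visible lung metastasis, and the bone had been depleted of marrow. The MMP9-high tumors came from the left proximal humerus of a Greyhound (D), the left distal radius of a Golden Retriever (A) and the left distal radius of a Great Pyranees (E). The MMP9-low tumors came from the left distal femur of a Rottweiler (B), the right distal tibia of a Greyhound (G) and the right distal radius of a Golden Retriever (F). The tumor left between the groups was from the left distal radius of a Doberman Pinscher (C). E and G were spayed females and the others castrated males. Both hindlimb tumors, B and G, fell in the MMP9-low group, so that limb and group cannot be fully told apart, whereas each group held a Greyhound, a Golden Retriever and a female. Each tumor was sampled once, so the spread within a group is that between dogs.

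The tumor libraries held between 18650945 and 32887213 counts and the bone libraries between 22564544 and 34479429. A single gene without a symbol in the tables used, ENSCAFG00000017018, took 26.3% of the counts of tumor E and 17.5% of those of tumor G, which lowers the CPM of every other gene in those libraries. For that reason the levels below are CPM scaled with edgeR's trimmed mean of M-values (TMM) over all 14 libraries, called normalized CPM. The scaling factor was 0.68 in tumor A, 0.72 in E and 0.77 in G, against 1.20 to 1.23 in the other tumors. A low factor raises the normalized level. In A, with the lowest factor, that gene took only 8.0% of the counts. Gene symbols could be attached to 1975 of the 14328 genes tested, 13.8%, through tables that favor genes differing between tumor and bone, so that the named genes are not an even sample of the genome. The number of genes with a count was 18689 to 20079 in the MMP9-high tumors, 20568 to 21516 in the MMP9-low tumors and 18971 in C, so the groups did not overlap in it, and its part in the differences below was not tested. The RNA integrity scores of the study, not printed here, overlapped between the groups only because E was above G. The lowest tumor scores were those of A and then D, and the highest those of F and then B. The part of RNA integrity in the differences below was not tested.

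The 7 tumors were ranked and selected on MMP9 (ENSCAFG00000009905) itself, and its values are therefore a description. MMP9 stood at 14196 CPM in tumor D, 1734 in A and 1050 in E, at 610 in C, and at 496 in B, 415 in G and 18.2 in F. The values on either side of the grouping were close, since C lay at 610 CPM between E at 1050 and B at 496. As normalized CPM the 3 highest were again D, A and E, at 11503, 2533 and 1449, but G, at 539, lay above C, at 503, followed by B at 406 and F at 15.1, so that the 3 lowest would be C, B and F. The groups here follow the CPM of column totals. With C in place of G, an alternative chosen after the data were seen, edgeR passed 0 genes at the FDR (false discovery rate) threshold used below, with 822 at an unadjusted p under 0.05, and the printed list medians that changed sign or moved by over 1.5 times with it are given with their list. D was far above the other tumors and F far below them, and the other 5 lay between 415 and 1734 CPM.

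Whether the MMP9 groups were osteoclast-rich and osteoclast-poor was checked on 25 osteoclast genes other than MMP9. Of these, 10 had an identifier, 9 passed the filter on low values and 15 had no identifier in the tables used. ACP5 (ENSCAFG00000017319), which encodes the tartrate-resistant acid phosphatase used as the histochemical stain for osteoclasts, was at 3942 normalized CPM in D, 937 in A and 650 in E, against 335 in B, 350 in G and 6.54 in F. The groups did not overlap, and F was the tumor that stood apart. CTSK (ENSCAFG00000012093), encoding the collagen-degrading protease cathepsin K, was at 5715 in D, 1025 in A and 948 in E, against 1102 in B, 337 in G and 189 in F. Here the groups overlapped, because B was above A and E. In bulk tissue fewer osteoclasts and less RNA per osteoclast cannot be told apart.

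The genes of osteoclast fusion and of proton transport lay apart between the groups. OCSTAMP (ENSCAFG00000010435), needed for the fusion of precursors, was at 180 normalized CPM in D, 16.5 in A and 26.7 in E, against 6.29 in B, 4.66 in G and 0.314 in F. ATP6V0D2 (ENSCAFG00000008749), a subunit of the osteoclast proton pump, was at 276, 40.8 and 39.5 in D, A and E, against 25.1, 6.31 and 0.143 in B, G and F. SLC9B2 (ENSCAFG00000010801), a sodium-proton exchanger abundant in osteoclasts, was at 63.4, 7.06 and 10.2, against 3.79, 1.61 and 0.486. The MMP9-high tumors were above the MMP9-low tumors in all 3 genes, and F was the lowest of the 7.

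The receptors were less clearly ordered. OSCAR (ENSCAFG00000024209), a costimulatory receptor of osteoclast precursors, was at 17.1, 7.44 and 6.46 normalized CPM in D, A and E, against 4.51 in B, 1.69 in G and no count in F. TNFRSF11A (ENSCAFG00000000075), which encodes RANK, the receptor for RANKL, was at 62.1, 8.21 and 20.3, against 17.6, 5.81 and 7.37, and A lay below B. SCIN (ENSCAFG00000044821), encoding the actin-severing protein scinderin, was at 15.2, 3.12 and 5.92, against 5.72, 1.85 and 0.6. Both of these genes were high in D and otherwise overlapped between the groups. ADAM8 (ENSCAFG00000013440), a metalloproteinase of osteoclasts and of other myeloid cells, was at 19.0, 8.84 and 13.3, against 24.8, 49.7 and 7.00, and was highest in G. CALCR, the calcitonin receptor gene, was under the filter, at no more than 1.55 normalized CPM in any tumor.

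Of the 9 genes tested, 8 were highest in tumor D, by a median of 4.21 times over the next tumor across the 9, and 7 were lowest in tumor F. The 5 genes ACP5, OCSTAMP, ATP6V0D2, SLC9B2 and OSCAR did not overlap between the groups, all higher in the MMP9-high tumors, whereas 3.46% of all genes tested, 496 of 14328, were higher without overlap and 3.55%, 509 genes, were lower without overlap. Scaling by column totals alone gave 3 such osteoclast genes, ACP5, OCSTAMP and SLC9B2, with 96 higher and 706 lower among all genes, and it shifted the median log2 fold change of all genes to -0.29. It also put B above both A and E in 6 of the 9 genes, against 2 with normalized CPM. The labels osteoclast-rich and osteoclast-poor thus described D and F, but did not clearly separate A and E from B, and the groups are called MMP9-high and MMP9-low here. A summed level over the 10 osteoclast genes with an identifier gave the same picture, at 10290 normalized CPM in D, 2054 in A, 1722 in E, 930 in C, 1526 in B, 760 in G and 212 in F.

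**Figure D1:**
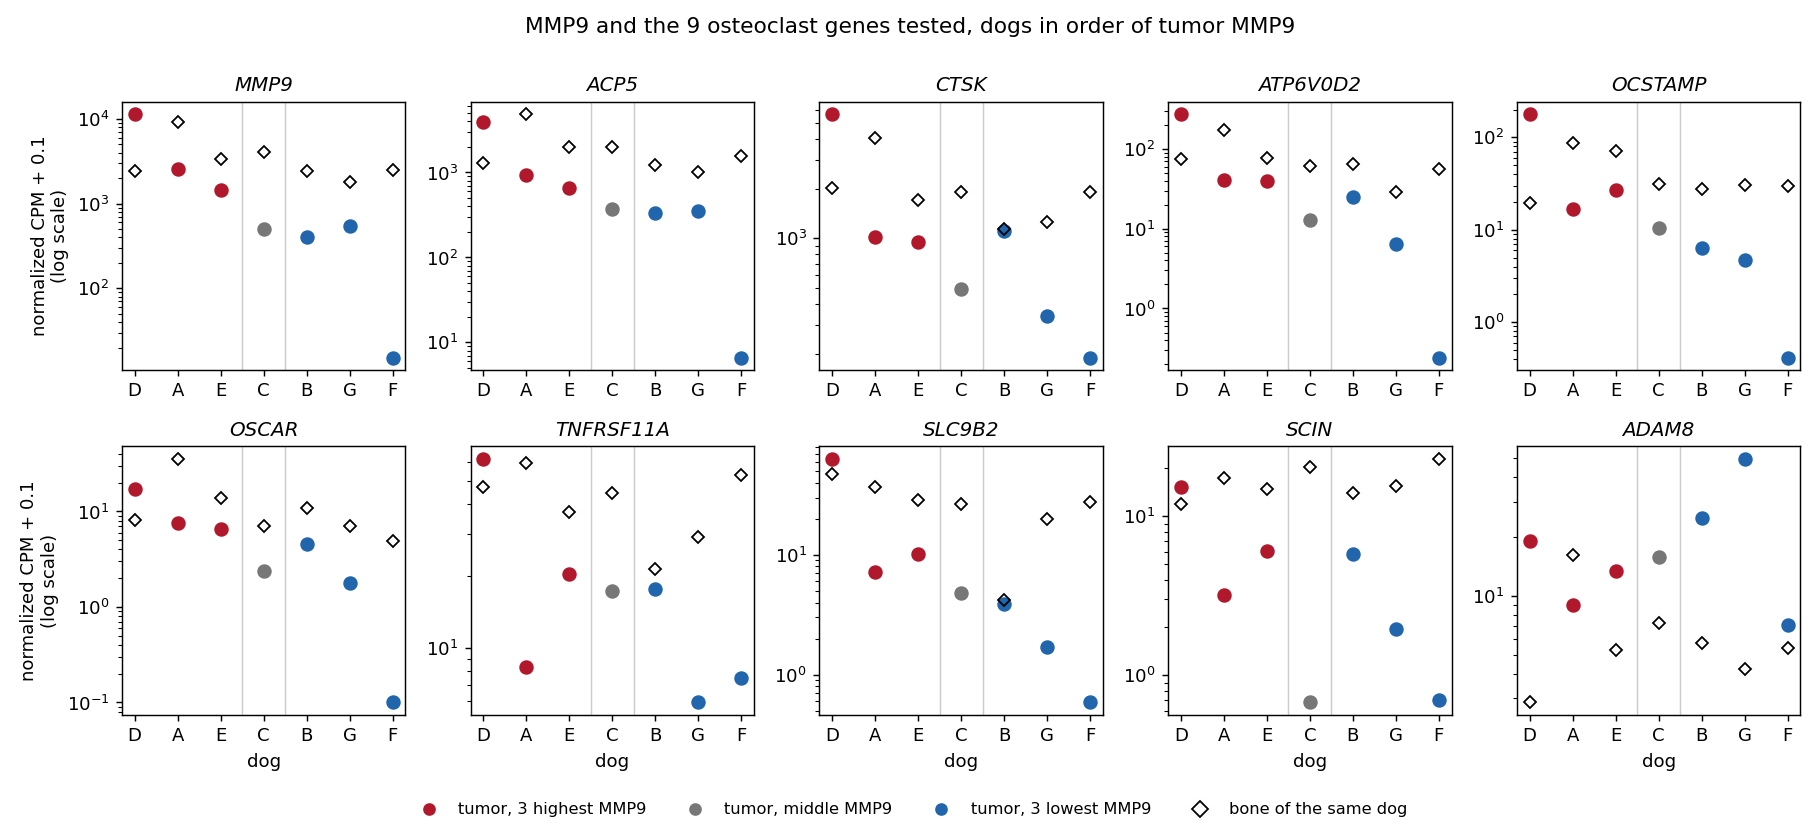
Normalized CPM plus 0.1 (log scale) of MMP9 and the 9 osteoclast genes tested, by dog in order of tumor MMP9; filled circles are tumors colored by MMP9 group and open diamonds the bone of the same dog, 1 library each. Tumor D was the highest tumor in 8 of the 9 genes and tumor F the lowest in 7, and tumor D alone lay above its own bone in MMP9.

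In the test across all genes, edgeR's quasi-likelihood test with Benjamini-Hochberg adjustment called none of the 14328 genes at an FDR under 0.05, that is 0% of the genes tested, and so none of the osteoclast genes. At an unadjusted p under 0.05 there were 502 genes, of which 238 (1.66%) were higher and 264 (1.84%) lower in the MMP9-high tumors. DESeq2's Wald test called 35 genes, 20 higher and 15 lower, and limma-voom called 0. The osteoclast genes had a median log2 fold change of 2.32, against -0.00088 over all genes tested, with 8 of the 9 above 0. OCSTAMP had a log2 fold change of 4.33 ± 1.35 (SE, unadjusted p = 0.0148 in the edgeR test) and SLC9B2 of 3.79 ± 1.14 (unadjusted p = 0.0127 in the edgeR test). These were the 2 osteoclast genes with an unadjusted p under 0.05, and both had an edgeR FDR of 1. The number of osteoclast genes higher at an unadjusted p under 0.05 was 0 without D, 0 in the paired fit (tumor relative to the bone of the same dog, with the dog as a block), 6 without B, 4 without A and 3 without E or F. OCSTAMP differed by 2.52 and SLC9B2 by 2.13 without D, and by 2.97 and 2.06 in the paired fit. OCSTAMP alone of the 9 was called by DESeq2, at an adjusted p of 0.0318. The median over the 9 genes was 1.74 without tumor D, 1.84 without tumor F, 3.40 without tumor B, 1.15 without both D and F, and 2.18 with C in place of G.

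When the log2 CPM of MMP9 entered as a number over all 7 tumors instead of as groups, 13 genes (0.0907% of those tested) passed an FDR under 0.05 in edgeR, and all 13 rose with MMP9. Of the 9 osteoclast genes, 4 were among them. OCSTAMP rose by 0.96 ± 0.0778 (SE) log2 units per doubling of MMP9 (edgeR FDR 0.0329), ACP5 by 0.96 ± 0.108 (edgeR FDR 0.0434), ATP6V0D2 by 1.10 ± 0.131 (edgeR FDR 0.0438) and SLC9B2 by 0.74 ± 0.0841 (edgeR FDR 0.0434). A slope near 1 means that the gene doubled when MMP9 doubled. CTSK had a slope of 0.50 ± 0.0896 and an edgeR FDR of 0.18, and OSCAR a slope of 0.97 ± 0.245 and an edgeR FDR of 0.37, so neither passed in edgeR. DESeq2's Wald test in the same fit called both, CTSK at an adjusted p of 2.79e-05 and OSCAR at 2.91e-06, and 6 of the 9 osteoclast genes among 296 genes in all.

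The other 9 genes called in that fit were outside the osteoclast list. DPP4, encoding a cell-surface dipeptidyl peptidase, was at 366, 58.1 and 62.8 normalized CPM in D, A and E, at 27.0 in C, and at 33.8, 10.2 and 0.543 in B, G and F, and it rose by 0.98 log2 units per doubling of MMP9 (edgeR FDR 0.0405). CYGB, encoding the globin cytoglobin, was at 91.8, 49.0 and 33.9, at 18.7 in C, and at 21.8, 24.0 and 3.03, with a slope of 0.53 (edgeR FDR 0.0434). PRSS22, encoding a serine protease, ran from 36.1 in D to 0.514 in F (slope 0.64, edgeR FDR 0.0415), and S100A2, encoding a calcium-binding protein, from 27.6 in D to 0.486 in F (slope 0.61, edgeR FDR 0.0434). The remaining 5 had no symbol in the tables used, among them ENSCAFG00000016641, which ran from 1068 in D to 9.34 in F. In each of these genes D was the highest tumor and F the lowest. No gene was called without C, D, F or G, in turn, or in the 5 forelimb tumors alone, all of them fits on fewer tumors. The median slope of the 9 osteoclast genes in those fits was 0.75, 0.66, 0.65, 0.73 and 0.72, against 0.74 over the 7 tumors. Of the 13 genes, 1 was called without A, 6 without B and 2 without E, and 1 further gene was called in each of the first 2 of these fits. OCSTAMP was called in each of these last 3 fits, and its slope ranged from 0.94 to 0.98 over all the fits run.

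**Figure D2:**
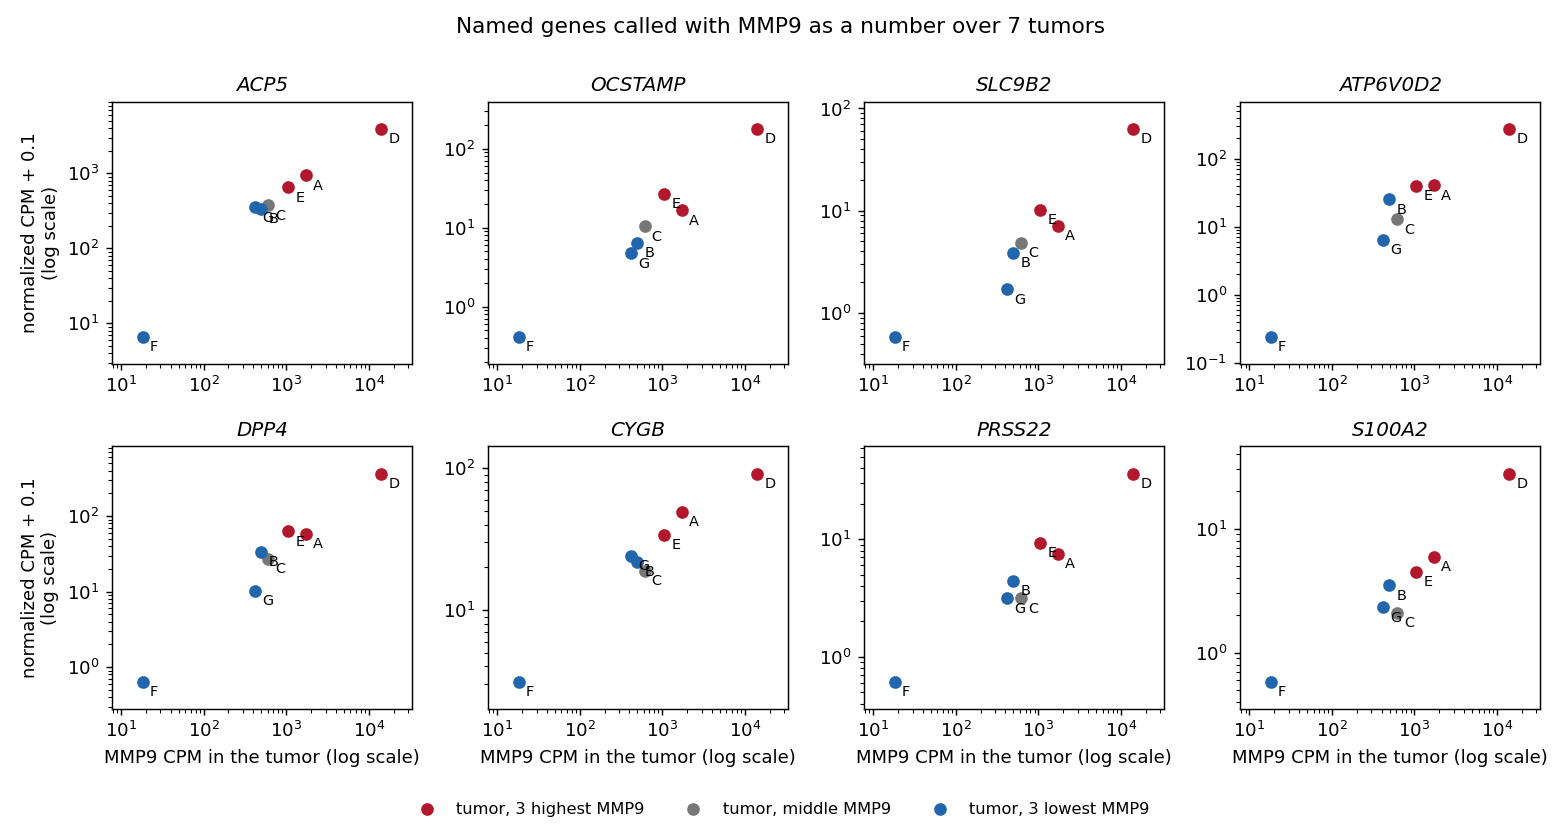
Normalized CPM plus 0.1 (log scale) of the 8 named genes called in the fit on MMP9, against MMP9 CPM in the tumor (log scale), 1 point per tumor with the dog's letter. Tumor D lies at the upper right and tumor F at the lower left of every panel, and the other 5 tumors lie between 415 and 1734 CPM of MMP9.

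Genes that promote or restrain osteoclast formation were split in direction. Of 26 such genes, 12 had an identifier and all 12 were tested, with 5 above 0 and 7 below 0 and a median log2 fold change of -0.36. That median was 0.29 without G, 0.05 with C in place of G and 0.02 in the paired fit with the dog as a block. PTH1R (ENSCAFG00000013600), the parathyroid hormone receptor through which bone-forming cells are driven to make RANKL, was at 234, 277 and 320 normalized CPM in D, A and E, against 22.5, 36.6 and 112 in B, G and F. The groups did not overlap, and C, at 428, exceeded them all. Its log2 fold change was 2.32 ± 0.62 (unadjusted p = 0.00702 in the edgeR test, edgeR FDR 1). It was 0.87 with C added to the MMP9-low group and 0.54 with C in place of G. CXCL8, the neutrophil-attracting chemokine interleukin 8, was at 27.1, 5.03 and 10.7, against 51.5, 161 and 24.6, a log2 fold change of -2.44 ± 0.88 (unadjusted p = 0.0272 in the edgeR test). D overlapped with F, and G was the highest tumor. The difference was -1.40 without G, -1.03 with C in place of G, and -0.87 in the paired fit, and reached -3.31 without D.

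The other regulators overlapped between the groups except CCL2, a monocyte-attracting chemokine, which was at 39.7, 36.4 and 12.4 normalized CPM in D, A and E, against 45.7, 46.7 and 57.1 in B, G and F (log2 fold change -0.73 ± 0.45, unadjusted p = 0.152 in the edgeR test). The cytokine genes IL6 and OSM had their highest tumor value in G, at 103.1 and 38.9. Their log2 fold changes were -1.12 and -1.82, and both were above 0 without G, at 0.84 and 0.74. SFRP2, a secreted modulator of Wnt signaling, was at 474, 1737 and 4395 against 483, 1564 and 70.0, highest in E. IL6ST, the shared signaling chain of IL-6-type cytokine receptors, differed by -0.18 ± 0.34, LIFR, the leukemia inhibitory factor receptor, by 1.06 ± 0.61, and RELT, a TNF receptor family member, by -0.55 ± 0.67. The Wnt ligand genes WNT5B and WNT10B differed by 0.50 ± 0.86 and 0.50 ± 0.95, and SFRP1, a Wnt antagonist, by -0.79 ± 1.20. None of these 12 genes passed the FDR threshold.

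Of the genes of bone-forming cells, none passed the FDR threshold in edgeR. All 17 tested genes of the osteoblast and bone matrix list, out of 25, had a log2 fold change above 0, with a median of 0.76, while 14 of the 17 overlapped between the groups and 3 had an unadjusted p under 0.05. PTH1R, described above among the regulators, is also in this list and was 1 of the 3. In the fit on MMP9 as a number the median slope was 0.04 with 12 of 17 above 0, and 8 of 17 without F. MMP13 (ENSCAFG00000015043), a collagenase made by osteoblasts and hypertrophic chondrocytes, was at 337, 225 and 1049 normalized CPM in D, A and E, against 34.0, 54.0 and 8.32 in B, G and F. Its log2 fold change was 4.08 ± 0.93 (unadjusted p = 0.00312 in the edgeR test), and DESeq2 called it at an adjusted p of 0.000494. BGLAP (ENSCAFG00000016851), the gene of osteocalcin, was at 175, 92.4 and 185, against 52.3, 35.9 and 55.0 (log2 fold change 1.69 ± 0.38, unadjusted p = 0.00322 in the edgeR test), and DESeq2 called it at an adjusted p of 0.0397. C, in between by MMP9, was the highest tumor for BGLAP at 296, and its log2 fold change was 0.44 with C added to the MMP9-low group, 0.15 with C in place of G and 0.70 in the paired fit with the dog as a block. The genes with the highest mean CPM in the list had smaller differences. COL5A1, a fibrillar collagen, had a log2 fold change of 0.53 ± 0.68, SERPINH1, a collagen chaperone, of 0.43 ± 0.49, and MMP14, a membrane collagenase, of 0.21 ± 0.44. The median was 0.37 without E, with 15 of 17 above 0. The count above 0 was 13 of 17 with C added to the MMP9-low group or in place of G, 14 of 17 with column totals and 12 of 17 relative to the bone of the same dog.

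Osteocyte and cartilage genes were mostly above 0 as well. Of the 6 osteocyte genes tested, 5 had a log2 fold change above 0, with a median of 2.48 that was 0.76 without E, 4.80 without F, and 0.09 with 3 of 6 above 0 with C in place of G. Of the 6, 2 had a mean under 1 CPM in the MMP9-low group, SOST among them, and passed the filter only through the other tumors. Without those the median was 1.58 over 4 genes. SOST, the osteocyte gene of the Wnt inhibitor sclerostin, was at 128 normalized CPM in E, 10.9 in C and no more than 0.763 in each of the other 5 tumors. DMP1, a matrix protein of osteocytes, was at 100, 21.8 and 135 in D, A and E, against 2.2, 2.23 and 42.6 in B, G and F, and at 428 in C. The groups overlapped, and the highest tumor was in neither. CHAD (ENSCAFG00000017064), the cartilage matrix protein chondroadherin, was at 115, 152 and 755, against 3.68, 46.9 and 13 (log2 fold change 4.03 ± 1.17, unadjusted p = 0.0109 in the edgeR test), and DESeq2 called it at an adjusted p of 0.0171. All 4 tested cartilage genes were above 0, with a median of 1.38 that was 0.80 without A, with 3 of 4 above 0, 2.90 without G and 2.21 with C in place of G. COL9A1, a cartilage collagen, differed by 2.35 ± 2.17 and MATN3, the matrix protein matrilin 3, by 0.39 ± 0.55.

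DNA replication and cell division genes lay on the other side. All 22 genes of the S phase list had a log2 fold change below 0, with a median of -1.02, and 13 had an unadjusted p under 0.05. In 12 of the 22 the MMP9-high tumors lay below the MMP9-low tumors without overlap, where the share over all genes was the 3.55% given above, and column totals gave 11. MCM5, a subunit of the replicative helicase, was at 63.9, 56.0 and 46.6 normalized CPM in D, A and E, against 109, 110 and 133 in B, G and F. CDC45, which activates that helicase, was at 9.45, 7.89 and 7.55, against 26.1, 20.1 and 17.4. FEN1, the flap endonuclease of lagging-strand synthesis, was at 9.13, 7.89 and 8.56, against 15.3, 24.3 and 37.7. In these genes the 3 MMP9-high tumors were close to each other.

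Their log2 fold changes were -1.06 ± 0.28 for MCM5, -1.33 ± 0.34 for CDC45 and -1.56 ± 0.40 for FEN1, with unadjusted p-values in the edgeR test of 0.00646, 0.00558 and 0.00586. The S phase genes with the highest mean CPM were TK1, thymidine kinase (log2 fold change -0.98 ± 0.36), MCM6, another helicase subunit (-0.99 ± 0.38), and RRM2, a subunit of ribonucleotide reductase (-1.22 ± 0.44). All 29 tested genes of the G2 and M phase list were below 0 as well, with a median of -1.19, and 5 had an unadjusted p under 0.05. MKI67, the proliferation marker Ki-67, was at 73.9, 110 and 37.4, against 120, 72.1 and 233, and the groups overlapped because A lay above G. TOP2A, a topoisomerase of dividing cells, differed by -0.70 ± 0.60 and CENPF, a kinetochore protein, by -1.06 ± 0.67. In the 3 against 3 comparison no gene of either list passed the FDR threshold in edgeR, limma-voom or DESeq2. In the fit on MMP9 as a number DESeq2 called MCM6, at an adjusted p of 0.0246.

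The summed levels of the replication genes were 789 normalized CPM in D, 784 in A and 619 in E, against 1022 in B, 1389 in G and 1995 in F, with 1080 in C. Those of the division genes were 974, 872 and 448, against 1237, 861 and 2737, with 1411 in C. The groups did not overlap in the first sum and did in the second, where G lay below D and A, and F was highest in both. Without F the medians were -0.71 for replication and -0.51 for division, with 6 of 22 and 1 of 29 genes at an unadjusted p under 0.05. Without E these numbers were 3 and 0. The count of division genes rose from 5 to 11 without D, to 18 without G and to 20 with C in place of G, and was 2 without A, while that of replication genes was 10 to 15 without A, B, D or G. All 22 and all 29 stayed below 0 under the alternatives of the 3 against 3 comparison, except 21 of 22 replication genes without E or without G and 28 of 29 division genes with C added to the MMP9-high group. In the fit on MMP9 as a number 21 of 22 and 29 of 29 slopes were below 0, and without F 19 of 22 and 20 of 29. Taken relative to the bone of the same dog, in the paired fit with the dog as a block, the medians were -1.26 and -1.56, with 15 of 22 and 22 of 29 genes at an unadjusted p under 0.05 and 0 past the FDR threshold. In that paired fit the osteoclast median was 2.02, and 0 of the 9 genes had an unadjusted p under 0.05. Over all genes it gave 861 at an unadjusted p under 0.05 and 0 past the FDR threshold.

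**Figure D3:**
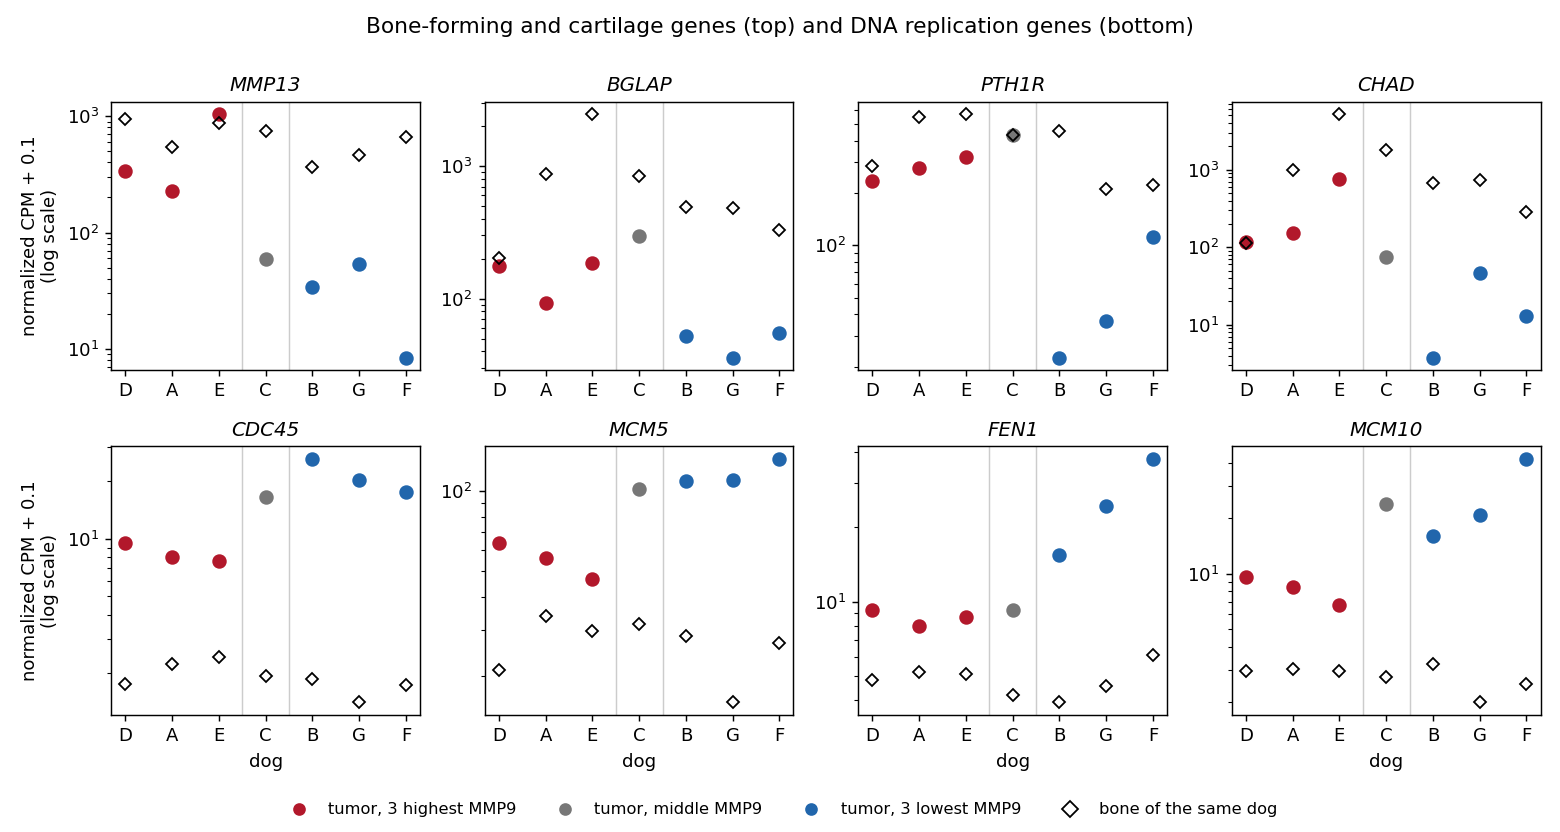
Normalized CPM plus 0.1 (log scale) of bone-forming and cartilage genes (top row) and DNA replication genes (bottom row), by dog in order of tumor MMP9; filled circles are tumors, open diamonds the bone of the same dog, 1 library each. The genes shown are ones whose groups did not overlap. The 3 MMP9-high tumors therefore lie above the 3 MMP9-low tumors in the top row and below them in the bottom row. In the full lists, 14 of 17 osteoblast and bone matrix genes, 3 of 4 cartilage genes and 10 of 22 S phase genes overlapped. C, in between by MMP9, was the highest tumor for PTH1R, at 428, and for BGLAP, at 296.

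Genes of other cell types that a bulk tumor holds were measured beside these. Of the macrophage genes 12 of 14 tested had a log2 fold change below 0, with a median of -1.03 and with 2 genes lower and 1 higher at an unadjusted p under 0.05. Without B the median was -0.42, with 10 of 14 below 0, and 0 genes were lower and 2 higher at an unadjusted p under 0.05. Without F it was -1.47 with 7 genes lower at an unadjusted p under 0.05, without both D and F -1.57 with 7 lower, and in the paired fit -0.56 with 0 lower. The sum over the 14 genes was 596, 673 and 358 normalized CPM in D, A and E, against 1720, 724 and 310 in B, G and F, so that B was highest and F lowest, and the groups overlapped. SLC11A1, a metal transporter of phagocytes, was at 290 in B and between 22.2 and 102 in the other tumors (log2 fold change -1.66 ± 0.87, and -2.17 to -0.49 when each tumor was left out). HMOX1, heme oxygenase 1, differed by -0.51 ± 0.73, and PLA2G7, a phospholipase of macrophages, by -0.53 ± 0.55. Tumor D had a macrophage sum inside the range of the other tumors.

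Neutrophils also make MMP9. Of 20 genes in their list 16 had no identifier, and of the 4 tested 2 had a mean under 1 CPM in the MMP9-high group and passed the filter only through the other tumors, so no median or count is read from them. The sum over the 4 was 27.2, 6.62 and 13.7 normalized CPM in D, A and E, against 22.8, 59.8 and 24.1 in B, G and F. MPO, myeloperoxidase, was at 2.55, 2.54 and 4.28, against 3.13, 4.45 and 12.7. None of the 4 was listed at 0 in all tumors. The sum holds the 2 genes that passed the filter only through the other tumors, so it is not read either. Which cells made the MMP9 was not tested.

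Lymphocyte genes had a median of -0.81, with 9 of 13 below 0, and their sum was highest in B at 506 normalized CPM. Without B the median was 0.77, with 11 of 13 above 0, and it was -0.34 without A, -1.83 without E and -1.21 without F. CCL5, a chemokine of cytotoxic T cells, was at 145 in B and 99.8 in E and no higher than 32.1 elsewhere. CD37, a leukocyte tetraspanin, differed by -0.81 ± 0.75 and LCP2, an adaptor of T cell signaling, by 0.03 ± 0.43. Interferon response genes had a median of -1.16 with 9 of 10 below 0, 5 of them at an unadjusted p under 0.05. OAS1, an antiviral enzyme induced by interferon, was at 18.5, 22.2 and 26.7 in D, A and E, against 68.7, 39.8 and 46.3 in B, G and F, and OAS2 at 25.6, 78.2 and 44.2 against 141, 81.9 and 106. DDX60, an interferon-induced helicase, was at 66.0 in B and no more than 8.94 in the other 5 tumors of the groups. C had the highest sum of this list, at 1378, and with C added to the MMP9-high group the median turned to 0.39. It was -0.36 without B and -2.68 with C in place of G, and the 5 genes at an unadjusted p under 0.05 became 1 without B or D, 2 without A or E and 8 with C in place of G.

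Genes of fat and muscle, tissues that lie next to a limb tumor, had their highest sums in D and A. Of the adipocyte genes 8 of 9 were above 0, with a median of 0.85 and 4 without overlap, all higher, against the 3.46% of all genes given above. With column totals 2 did not overlap, and the median was 2.74 without B and 0.48 without F. The sum was 290 normalized CPM in D, 213 in A and 136 in E, against 115 in B, 170 in G and 84.9 in F. FABP4, the fatty acid carrier of adipocytes, was at 106, 55.1 and 20.4, against 14.4, 18.2 and 0.286, whereas LPL, lipoprotein lipase, differed by -0.22 ± 0.47 and PNPLA2, a triglyceride lipase, by 0.53 ± 0.60. Of the skeletal muscle genes 10 of 11 were above 0, with a median of 1.21, and their sum was 368 in D and 266 in A and between 82.5 and 92.7 in the other 5 tumors. Without D the median was -0.28, with 5 of 11 above 0, and without F 1.83. A mean under 1 CPM in the MMP9-low group was found for 3 of these 11 genes and 1 of the 9 adipocyte genes, and without them the medians were 1.04 over 8 and 0.75 over 8 genes. Likewise 1 macrophage and 1 lymphocyte gene passed the filter through 1 group only, and the medians without them were -1.13 and -0.75. ACTA1, skeletal muscle actin, was at 216 in D and 110 in A. MYOM1, a sarcomere protein, differed by 2.31 ± 0.94. What part these tissues had in the other differences was not tested.

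Endothelial genes had a median of 0.29 over 14 genes, 11 of them above 0, which was -0.11 with 6 of 14 above 0 without F, 0.05 without A, 0.96 without G and 0.80 with C in place of G. They had differences of 0.52 ± 0.51 for EGFL7, 0.47 ± 0.76 for PTPRB and 0.32 ± 0.66 for ARHGEF15. Their sum was lowest in F, at 180 normalized CPM against 387 to 667 in the other tumors. The 3 erythroid genes tested had a median of 0.85 (0.19 without A, 0.48 without F and 0.39 with C in place of G), with ALAD, an enzyme of heme synthesis, at 0.20 ± 0.43, TMOD1, a capping protein of the red cell skeleton, at 1.17 ± 1.03 and ICAM4, a red cell adhesion molecule, at 0.85 ± 0.65. Hypoxia and glycolysis genes had a median of -0.15 over 12 genes that was 0.26 without G, 0.04 without D and 0.31 with C in place of G, and the glycolytic enzymes GAPDH, LDHA and PGAM1 differed by -0.16 ± 0.61, -0.13 ± 0.40 and -0.40 ± 0.40. Genes of the unfolded protein response and secretion had a median of -0.27 with 14 of 15 below 0, which was -0.46 without A, -0.48 without B, -0.44 without E and -0.59 in the paired fit. The chaperones CALR, HSP90B1 and P4HB differed by -0.62 ± 0.48, 0.09 ± 0.44 and -0.26 ± 0.40. None of the genes in these lists passed the FDR threshold in edgeR.

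In the fit on MMP9 as a number the macrophage list did not keep its side, and the side of many other lists depended on single tumors. Macrophage genes had 8 of 14 slopes above 0 with a median of 0.0018, with 14 of 14 above 0 without D, 12 of 14 without A or in limma-voom, 11 of 14 without B and 2 of 14 without F. Lymphocyte genes had 5 of 13 above 0, with 13 of 13 without D, 11 without A, 10 without B or in forelimb tumors only, 9 in limma-voom and 1 without F. Interferon response genes had 0 of 10 above 0, and 9 of 10 without D. Osteocyte genes had a median slope of 0.13 with 5 of 6 above 0, against 0 of 6 without F (median -0.32) and 2 of 6 in limma-voom (median -0.05). Endothelial genes had 13 of 14 above 0, and 3 of 14 without F. Skeletal muscle genes had 11 of 11 above 0, and 5 of 11 without D. Erythroid genes had 3 of 3 above 0, and 1 of 3 without F. Osteoclast regulators had 5 of 12 above 0, and 8 of 12 without D. The median slope of osteoblast and bone matrix genes was 0.038, and -0.0073 without F. That of hypoxia and glycolysis genes was 0.0087, and -0.074 without F. Of the osteoclast genes, 8 of 9 were above 0 without F and 9 of 9 in the other fits run.

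**Figure D4:**
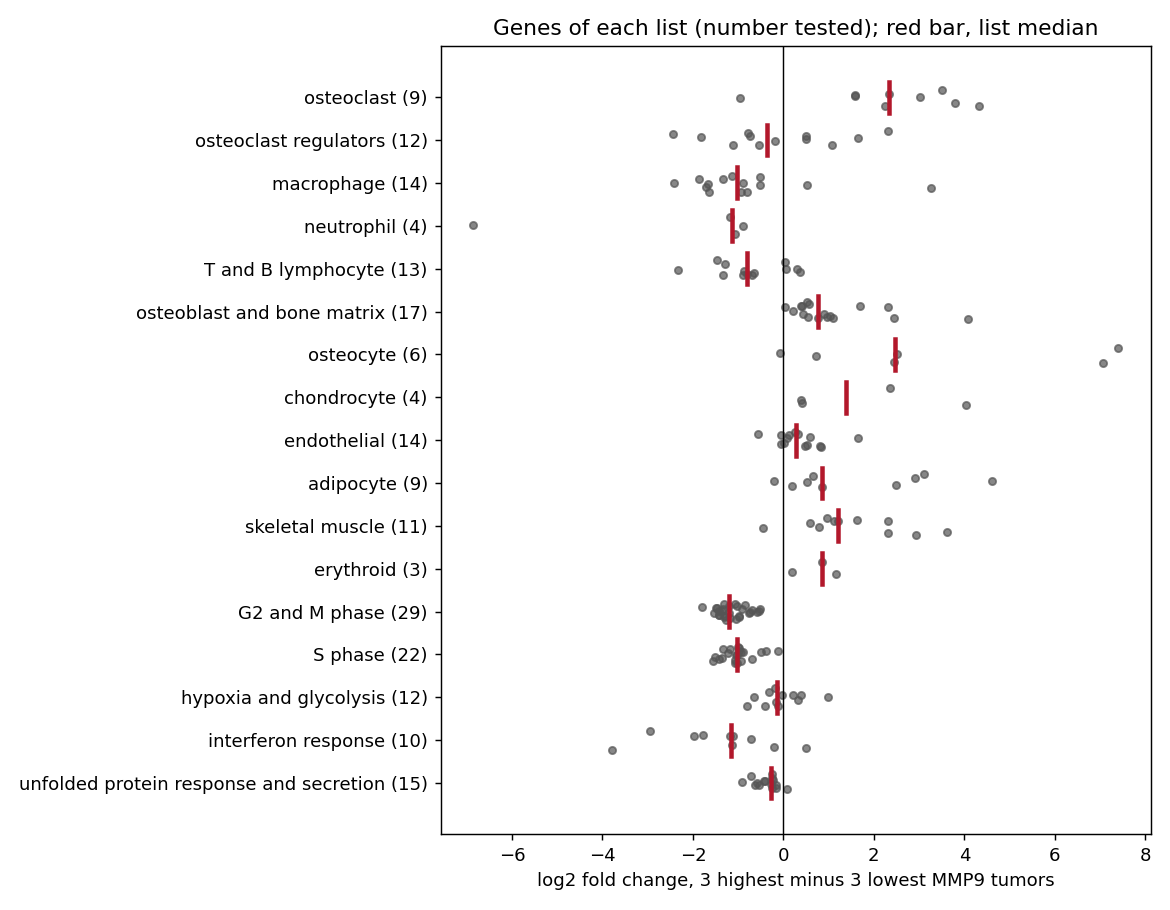
Log2 fold change between the 3 MMP9-high and the 3 MMP9-low tumors (horizontal axis) for the tested genes of each list, 1 point per gene, with the list median as a red bar and the number of genes tested in parentheses. The osteoclast median is 2.32 and the S phase median -1.02, all 22 S phase and 29 G2 and M phase genes lie below 0, and no gene passed the FDR threshold in edgeR.

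The genes with a symbol and no overlap between the groups, whether in a list or not, were ordered by unadjusted p. None passed the FDR threshold in edgeR. UROC1, SBK3, BARX1, DUSP9 and NLRP12 had a mean under 1 CPM in one of the groups and passed the filter only through the other group or C, so that they had to differ, and their levels are given with no test. Among the 10 leading genes higher in the MMP9-high tumors were MMP13 and BGLAP, described above. UROC1, which encodes urocanase, an enzyme of histidine breakdown, was at 7.61, 1.78 and 2.81 normalized CPM in D, A and E and had no count in B, G or F. Its counts were 239, 28 and 67 in D, A and E, most of them in D, and no fold is read from it. CPED1, which lay between 73.1 and 175 in bone, was at 84.7, 39.1 and 37.0, against 15.5, 9.73 and 15.5 (log2 fold change 2.01 ± 0.44), and at 113 in C, above all of them. Its log2 fold change was 0.47 with C added to the MMP9-low group and 0.14 with C in place of G. DESeq2 called CPED1 at an adjusted p of 0.0371.

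The other 6 of these 10 genes were SBK3, PLIN4, GLDN, ANK3, MAL and PROSER2. SBK3, a kinase gene, was at 2.67, 3.56 and 0.629 normalized CPM in D, A and E and no higher than 0.165 in the MMP9-low tumors. PLIN4, a lipid droplet protein, was at 16.1, 13.7 and 3.36, against 1.26, 1.73 and 1.51, and DESeq2 called it at an adjusted p of 0.0303. Its log2 fold change was 2.90, and 1.39 in the paired fit. GLDN, encoding gliomedin, differed by 1.74 ± 0.40 and ANK3, encoding the membrane adaptor ankyrin G, by 2.60 ± 0.65. GLDN was highest in C, at 138, and differed by 0.70 with C added to the MMP9-low group and by 0.40 with C in place of G, and ANK3 by 1.71 and 1.41. MAL, encoding a membrane proteolipid, was at 118 in A and at 7.26 and 4.99 in D and E, against at most 1.44 in the MMP9-low tumors. C was at 90.6, and the log2 fold change of 5.25 became 0.86 and 0.47 with these groupings. PROSER2 was at 18.9, 20.2 and 39.6, against 4.4, 10 and 4.6, and at 115 in C. With C added to the MMP9-low group its log2 fold change turned to -0.38, and with C in place of G to -0.68.

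Of the 10 leading genes that were lower in the MMP9-high tumors, 4 were the DNA replication genes CDC45, FEN1 and MCM5, given above, and MCM10, a replication initiation factor (log2 fold change -1.65 ± 0.44). BARX1, a homeobox transcription factor, was at 0.191, 0.636 and 0.797 normalized CPM in D, A and E, against 20 in B, 3.71 in G and 33.3 in F. DUSP9, a phosphatase that acts on MAP kinases, was at no more than 0.636 in the MMP9-high tumors, against 17.8, 2.47 and 7.57.

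UCHL1, a deubiquitinating enzyme of neurons that many tumors also express, was at 23.1, 23.4 and 17.9 normalized CPM in D, A and E, against 41.0, 67.8 and 116 in B, G and F (log2 fold change -1.77 ± 0.42). PCOLCE2, which enhances the processing of procollagen, was at 12.8, 10.9 and 12.4, against 34.2, 24.2 and 32.4 (log2 fold change -1.30 ± 0.30). In both, the 3 MMP9-high tumors were close together. NLRP12, an innate immune receptor of myeloid cells, had 2 counts in A and none in D or E, against 147 counts in B, 6 in G and 321 in F.

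The bone of the same dogs gave a second look at the grouping, in libraries that the ranking had not used. MMP9 in bone was at 2427, 9243 and 3389 normalized CPM in dogs D, A and E, against 2406, 1824 and 2468 in B, G and F, with 4040 in C. The mean difference was 0.94 on the log2 scale (exact permutation test, two-sided, p = 0.2, n = 3 against 3, where the smallest possible p is 0.1). A had the highest bone value, and without A the difference was 0.37. The order of the dogs in bone was not that in tumor. D was first by tumor, but by bone lay below F and only slightly above B, so the groups overlapped in bone.

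The osteoclast genes in bone had a median log2 fold change of 1.02 between the same groups of dogs, with 8 of 9 above 0, against 0.01 over all genes. ATP6V0D2 was at 75.5, 174 and 77.1 normalized CPM in the bone of D, A and E, against 64.7, 28.9 and 56.6 in B, G and F, and SLC9B2 at 47.0, 36.4 and 28.7, against 4.06, 19.8 and 27.3. These were the 2 of 9 whose bone groups did not overlap, all higher, where 4.4% of all genes were higher without overlap in bone. The edgeR test called 0% of the genes in bone, 962 had an unadjusted p under 0.05, and DESeq2 called 45. The median was 0.39 without the bone of A. Adipocyte, bone matrix and cartilage lists were above 0 in bone as in tumor, with a median of 1.39 and 9 of 9 above 0 for adipocyte genes (0.70 without the bone of D), 0.69 and 17 of 17 for osteoblast and bone matrix genes (0.29 without the bone of E) and 1.26 and 3 of 4 for cartilage genes (0.33 without the bone of E). Other lists lay on the opposite side from tumor. In bone 19 of 22 replication genes (median 0.23), 26 of 29 division genes (0.44) and 12 of 15 genes of the unfolded protein response and secretion (0.30) were above 0, and these bone differences enter the paired medians given above. The replication median was 0.07 without the bone of G and 0.10 without that of E. The division median was 0.20 without the bone of G and 0.69 without that of F.

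Tumor D was also the tumor that exceeded its own bone. MMP9 was 4.74 times as high in tumor as in bone in D, and between 0.00614 and 0.427 times in the other 6 dogs. All 9 osteoclast genes were higher in tumor than in bone in D, from 1.28 times for SCIN to 9.32 times for OCSTAMP. In A 0 of 9 and in each of the other 5 dogs 1 of 9 genes was higher in tumor, and in those 5 it was ADAM8. In F, ACP5 was at 0.00415 and ATP6V0D2 at 0.00252 times the bone level. The bone libraries differed less among themselves, with ACP5 from 1018 to 4908 normalized CPM in bone against 6.54 to 3942 in tumor.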

How the data were processed

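RNA of 7 tumors and 7 bones was sequenced from poly(A) libraries as paired-end reads. The deposited values are raw counts per Ensembl gene (30951 genes), which the authors made by trimming with Trimmomatic, mapping with HISAT2 2.2.1 to CanFam3.1 and counting with StringTie 1.3.3, without normalization. The submitters' processing notes give Trimmomatic 0.39, and the study's methods name another version. Whether strand or multi-mapping reads were considered is not given in the sources used here, so overlapping genes and close paralogs are uncertain. No coordinates or sequences were used.

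Tumors were ranked by MMP9 CPM (count over the column total), and the 3 highest were compared with the 3 lowest over genes with a mean CPM of 1 or more (14329 genes, 14328 without MMP9). The test was edgeR 4.0.16 (quasi-likelihood, TMM, R 4.3.3), with a Benjamini-Hochberg FDR under 0.05. DESeq2 1.42.0, limma 3.58.1 (voom), other scalings, filters, groupings and leaving out each tumor were alternatives. SE is the log2 fold change over the root of F. Printed levels are CPM with TMM factors over the 14 libraries. The bone of the same dogs was compared with the same model, and MMP9 in bone with an exact permutation test. The scripts were tested on simulated data. The members and gene lists were chosen with earlier results of these data known.

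Symbols came from the tables of the study (2292 identifiers). Named were all tested osteoclast and regulator genes, the 3 genes of highest mean CPM of each other list, and, since none passed the FDR, the 10 genes in each direction with a symbol, no overlap and the lowest unadjusted p. Some genes that this rule names are not reported here. Genes called in the fit on MMP9 were added after seeing the data. Tumor and bone of a dog come from the same animal. As a check of this pairing, the deviations of tumor and bone from their means correlated by 0.094 to 0.214 across 14328 genes (median 0.127), over 0.1 in 6 of 7 dogs.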

Additional observations from a re-analysis of the deposited data

Results flagged for a closer look

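Among 86 sets of 7 libraries examined, for the osteoclast, regulator and other leading genes in tumor and in bone on the log2 scale with 0.1 added, 5 had 1 library whose distance to its nearest neighbor exceeded the 95% critical share of the range. Chance gives about 1 in 20. ACP5 in tumor F, at 6.54 normalized CPM, was the lowest of 7 tumors, and ACP5 in the bone of dog A, at 4908, the highest of 7 bones. SLC9B2 in the bone of dog B, at 4.06, was the lowest of 7 bones. OSM in tumor G, at 38.9, was the highest of 7 tumors. NLRP12 was at 2.14 in the bone of dog D and had no count in the other 6 bones.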

How the results depend on the processing

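The comparison of 3 against 3 tumors gave 0 genes under the alternatives run other than DESeq2's Wald test (35), MMP9 as a number (13) and leaving out G (1), with 0 to 1 when each tumor was left out. In bone DESeq2 gave 45 and leaving out each bone 0 to 3, with 1 without B or E, 2 without A and 3 without D. With MMP9 as a number the count of 13 was 0 in forelimb tumors only, 3 with column totals, 296 with DESeq2, and 0 to 7 when each tumor was left out. The forelimb alternative of the 3 against 3 comparison was not run, because it leaves 1 MMP9-low tumor. The paired fit with the dog as a replicate block called 0 genes, gave an osteoclast median of 2.02 (2.32 without the block) and changed no call. The osteoclast median was above 0 under all alternatives run, from 1.15 without both D and F to 3.70 with limma-voom, and 1.74 to 3.40 when each tumor was left out. Leaving out both D and F, the groups by normalized CPM, and the fits of MMP9 as a number other than the first were chosen after seeing the data.

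Of 690 values of the 41 osteoclast, regulator and leading genes under alternatives, 20 in 9 genes changed sign, none of them called. IL6 (-1.12) was 0.50 with limma-voom, 0.37 in the paired fit with the block, and -1.69 to 0.84 when each tumor was left out. IL6ST was 0.21 without D and F and -0.36 to 0.047 leaving out each tumor, OSM -2.32 to 0.74, and RELT -0.95 to 0.29. LIFR was -1.06 and PROSER2 -0.38 with C added to the MMP9-low group. WNT5B was -0.17 with limma-voom, -0.29 without D and F, and -0.053 to 1.03 leaving out each tumor. WNT10B was -0.00092 with column totals and -0.046 to 1.94 leaving out each tumor. With groups by normalized CPM of MMP9 (C in place of G), IL6 was 1.39, OSM 0.70, LIFR -1.44, WNT10B -0.33, SFRP1 0.44 and PROSER2 -0.68. Of the 44 genes chosen from the other lists by mean CPM, 23 changed sign under at least 1 alternative, so the direction of single genes in those lists is not settled. The cause of these changes was not tested.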
